A study of Mus musculus with 22 samples.

Results

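The transcripts described here are those of Gja1, Gjb6 and Gjb2, which encode the connexins Cx43, Cx30 and Cx26. They were taken by gene name, 3 of the 24537 genes measured, and all 3 were detected in every library and passed the filter on low values. RNA of the visual cortex was sequenced from C57BL/6J mice carrying the 73.12 GFAP-cre driver and an HA-tagged Rpl22, so that ribosomes of cells with a history of GFAP-cre activity could be pulled down with an antibody to HA (RiboTag). The pulldown gives ribosome-bound RNA of the tagged cells, and an input library gives RNA of the whole dissected cortex, without pulldown. All groups shared this strain and genotype, and all brains were perfused with 1% paraformaldehyde before dissection.

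Pulldown libraries numbered 3 for normal rearing to postnatal day 45 with 12 h of darkness a day, and 4 for dark rearing from birth to day 45 with 24 h of darkness a day. Another 3 came from mice aged 120 days after 10 days in the dark. The last 2 groups came from mice aged 28 days after 2 days of monocular deprivation, 3 libraries from the hemisphere contralateral to the deprived eye and 3 from the ipsilateral one. Each of the 5 groups had 1 input, so 16 pulldown and 5 input libraries were used. The labels do not say how many animals went into a library, and p-values measure the spread between these libraries. Values are FPKM, fragments scaled to transcript length and library size, so they are per length and can be set side by side between genes.

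Connexins are membrane proteins that assemble into hemichannels, and hemichannels of neighbouring cells dock to form gap junctions. Gap junctions let ions, second messengers and metabolites pass between cells and couple cortical astrocytes into networks. Cx43 is the main astrocyte connexin, Cx30 is added to it as the brain matures, and Cx26 is known from both astrocytes and the leptomeninges.

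On GRCm38 (mm10), Gja1 (NM_010288) lies on the plus strand of chromosome 10 at 56377300 to 56390419, with a transcript of 3071 bases. Gjb6 (NM_001010937, 57123301 to 57133611) and Gjb2 (NM_008125, 57098602 to 57104702) are neighbours on the minus strand of chromosome 14, 18598 bases apart, with transcripts of 2105 and 2406 bases. In each of the 3 genes the whole coding sequence lies in 1 exon, of 2 exons for Gja1 and Gjb2 and of 3 for Gjb6. Gjb2 and Gjb6 share a neighbourhood but not a level. Within 150000 bases of that pair, Gja3, the lens connexin Cx46, was listed at 0 in all 21 libraries, while the flanking genes Zmym2 averaged 4.37 ± 1.70 FPKM (SD, n = 16 pulldowns) and Cryl1 9.18 ± 1.73 FPKM.

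The 250 bases before each RefSeq start site are printed because these genes were measured at very unequal levels and 2 of them are neighbours. The windows are chr10:56377050-56377299 for Gja1, chr14:57133612-57133861 for Gjb6 and chr14:57104703-57104952 for Gjb2, from RefSeq on GRCm38.p6, and each is written 5′ to 3′ on its gene's strand. Capitals mark the matches to the motifs searched on both strands.
Gja1: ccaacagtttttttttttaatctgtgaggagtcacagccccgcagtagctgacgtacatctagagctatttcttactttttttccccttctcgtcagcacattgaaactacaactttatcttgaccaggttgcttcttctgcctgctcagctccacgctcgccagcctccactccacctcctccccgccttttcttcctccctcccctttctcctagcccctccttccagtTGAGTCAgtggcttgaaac
Gjb6: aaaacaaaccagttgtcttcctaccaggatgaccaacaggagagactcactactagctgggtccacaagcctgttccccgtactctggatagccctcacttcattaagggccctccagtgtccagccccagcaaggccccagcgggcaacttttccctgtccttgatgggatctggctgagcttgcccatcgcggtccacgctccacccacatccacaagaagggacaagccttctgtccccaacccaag
Gjb2: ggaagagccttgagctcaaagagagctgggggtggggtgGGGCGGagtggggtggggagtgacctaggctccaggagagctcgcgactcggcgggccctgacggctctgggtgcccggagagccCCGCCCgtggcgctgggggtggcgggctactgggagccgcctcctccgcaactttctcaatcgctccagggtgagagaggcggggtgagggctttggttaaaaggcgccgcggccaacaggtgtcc
The Gja1 window holds an AP-1 motif (TGANTCA) whose first base is at -19 from the start, and 6.749% of 32851 mouse promoter windows of the same length hold one. The Gjb2 window holds 2 GC boxes (GGGCGG), at -211 and -126, a motif found in 32.742% of windows. The GC content of the Gjb2 window, 69.2%, was above the 56.8% of Gjb6, and that of Gja1 was lowest. No match to the CRE (TGACGTCA), a box with the letters TATAAA or one with the letters CCAAT was found in any of the 3 windows, and none to any motif in that of Gjb6. The shares of all windows with these letters were 1.546%, 12.368% and 33.85%.

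Before the results, the libraries themselves need a description. The astrocyte identity of the pulldown held, since 15 of 15 astrocyte markers were higher than in input, as 26.4% of all tested genes were, and 14 of 14 neuron and 12 of 12 microglia markers were lower, as 50.7% of genes were. Oligodendrocyte markers (6 of 10 higher) and ependymal markers (5 of 6 higher) also rose. Depth estimated from the step size of very short genes ranged between 21.1 and 51.1 M reads in 20 libraries. The library with fewest detected genes, contralateral replicate 2, gave no estimate. Libraries differed in the ribosomal RNA gene Rn45s, which stood at 130.3 to 159.5 FPKM in 3 pulldowns (normally reared, contralateral and ipsilateral replicates 3) and at 4280 to 31654 FPKM in the other 13.

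The 3 genes stood at very different levels in the pulldown. Gja1 averaged 474.7 ± 159.6 FPKM (SD, n = 16), rank 68 from the top of 11562 genes with a mean above 1 FPKM. Gjb6 averaged 166.7 ± 31.6 FPKM at rank 294, and Gjb2 7.11 ± 1.56 FPKM at rank 6179. Gja1 was above Gjb6, and Gjb6 above Gjb2, in each of the 16 pulldowns and 5 inputs. At the estimated depths these levels rest on about 18137 to 80027 reads a pulldown for Gja1, 6787 to 18569 for Gjb6 and 269 to 791 for Gjb2, leaving out contralateral replicate 2. Counting error is therefore largest for Gjb2.

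Gja1, by library, read 518.5, 571.8 and 638.7 FPKM after normal rearing and 540.0, 676.4, 548.1 and 538.7 FPKM after dark rearing (replicates 1, 4, 5 and 6). It read 279.9, 572.6 and 484.6 FPKM after 10 days of darkness (replicates 1, 3 and 4). In the monocular groups it read 279.8, 224.0 and 645.3 FPKM contralaterally and 278.8, 223.0 and 574.3 FPKM ipsilaterally. The 16 values fell into a lower set of 5 libraries from 223.0 to 279.9 FPKM and a higher set of 11 from 484.6 to 676.4 FPKM, with a gap of 1.73-fold and no library inside it. The lower set held monocular replicates 1 and 2 of both hemispheres and replicate 1 of the 10-day darkness group, so it cut across groups. Gja1 inputs read 67.3 FPKM (normal rearing), 93.6 (dark rearing), 66.2 (10 days of darkness), 61.7 (contralateral) and 53.1 (ipsilateral).

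Gjb6 varied less. It read 190.9, 247.1 and 160.4 FPKM after normal rearing, 187.1, 180.4, 174.0 and 192.4 FPKM after dark rearing, and 152.8, 161.5 and 157.6 FPKM after 10 days of darkness. In the monocular groups it read 139.2, 122.6 and 177.9 FPKM contralaterally and 137.2, 115.8 and 169.7 FPKM ipsilaterally. The highest Gjb6 value was 2.13 times the lowest, against 3.03 times for Gja1, and no gap as wide as that of Gja1 divided the libraries. The inputs read 23.2 FPKM for normal rearing, 33.1 for dark rearing, 23.5 for 10 days of darkness, 25.1 for the contralateral and 26.0 for the ipsilateral hemisphere.

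Gjb2 read 7.2, 9.2 and 6.3 FPKM after normal rearing, 8.0, 8.4, 7.7 and 9.0 FPKM after dark rearing, and 5.3, 7.9 and 7.1 FPKM after 10 days of darkness. It read 8.0, 4.1 and 8.2 FPKM contralaterally and 5.8, 4.2 and 7.4 FPKM ipsilaterally. The lowest pair of values belonged to monocular replicate 2 of the 2 hemispheres. The inputs read 4.4, 4.6, 2.1, 3.0 and 1.6 FPKM in the order normal rearing, dark rearing, 10 days of darkness, contralateral and ipsilateral. Since values are rounded to 0.1 FPKM, an input of 1.6 FPKM carries a coarse step.

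**Figure D1:**
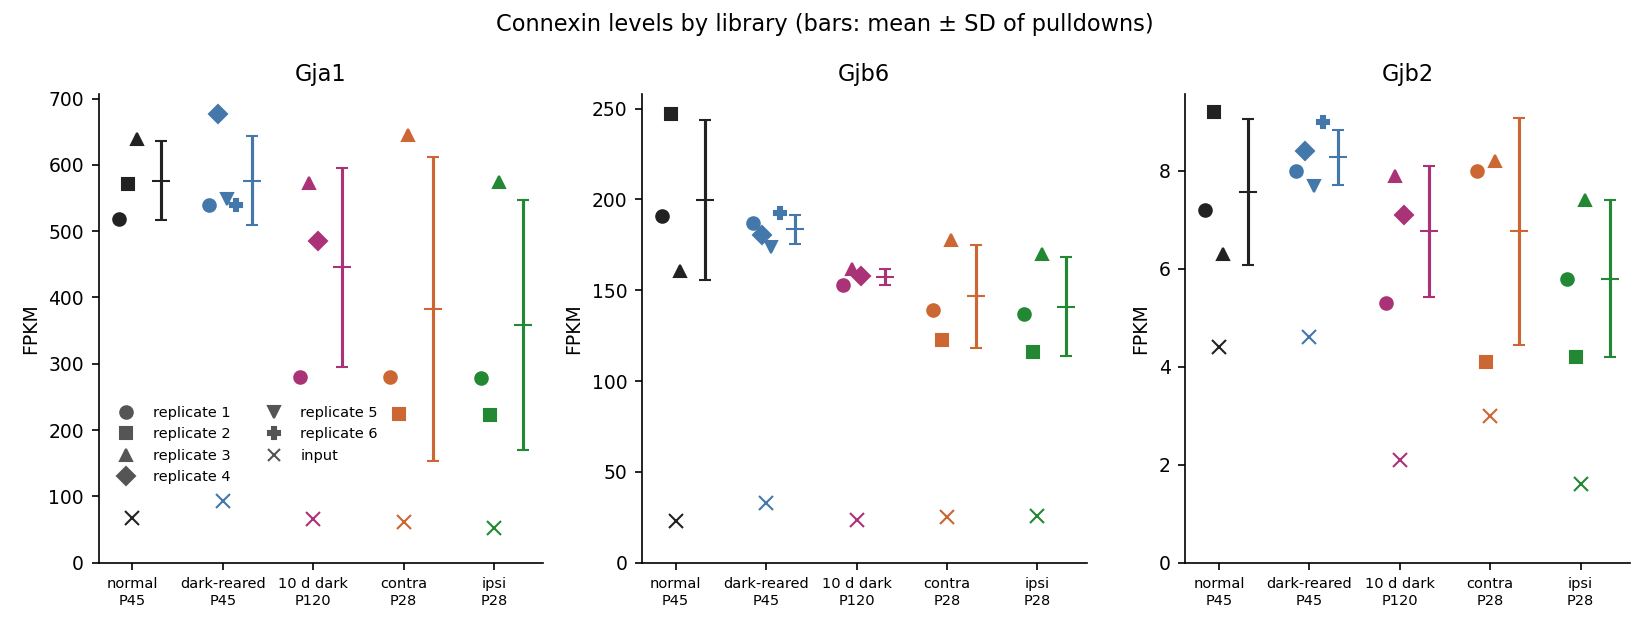
FPKM of Gja1, Gjb6 and Gjb2 (linear vertical axes) in each library of the 5 groups, with symbols for the replicate number, crosses for the 1 input of a group and bars for the mean ± SD of the pulldowns. Gja1 in 5 pulldowns sits between 223.0 and 279.9 FPKM, apart from the other 11, and all pulldowns of Gja1 and Gjb6 sit above all inputs.

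The comparison of pulldown with input asked how strongly each connexin was represented in ribosome-bound RNA of the tagged cells. All 3 genes were higher in the pulldown by limma's moderated test with Benjamini-Hochberg adjustment over 12070 genes, where 26.4% of genes were called higher. Gja1 rose by 2.68 ± 0.22 on the log2(FPKM + 1) scale (SE, adjusted p = 7.8e-10), from a mean of 68.4 ± 15.2 FPKM in the inputs (SD, n = 5). Gjb6 rose by 2.60 ± 0.12 (adjusted p = 1.1e-13) from 26.2 ± 4.04 FPKM. Gjb2 rose by 0.99 ± 0.15 (adjusted p = 4.4e-06) from 3.14 ± 1.34 FPKM. The ranges of pulldowns and inputs did not overlap for Gja1 and Gjb6, as was true with the pulldown higher for 14.9% of genes tested, and they overlapped for Gjb2 because 2 pulldowns, at 4.1 and 4.2 FPKM, lay below inputs of other groups. The ratios of mean FPKM were 6.94 for Gja1, 6.37 for Gjb6 and 2.27 for Gjb2.

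The median of all genes was -0.31 in this comparison, with 3185 genes called higher and 6115 lower. Quantile normalization brought it to 0.01 with 4646 of 9284 calls higher, and it then left Gja1 at 2.67, Gjb6 at 2.75 and Gjb2 at 1.39. The pseudocount moved Gjb2 most, from 1.20 at 0.1 to 0.57 at 5, with the call kept.

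In each group every pulldown of each gene was above the group's own input. For Gja1 the group mean was 8.56 times the input after normal rearing, 6.15 after dark rearing, 6.73 after 10 days of darkness, 6.21 contralaterally and 6.76 ipsilaterally. For Gjb6 it was 8.60, 5.54, 6.69, 5.84 and 5.42 times in the same order. For Gjb2 the mean log2 ratio to the input was 0.65, 0.73, 1.31, 0.91 and 1.36. With 1 input per group, differences between these ratios have no replicate check.

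The Gjb2 ratios were lowest after normal and dark rearing, where Gjb2 was highest in the input and in the pulldown mean. The input is the denominator of the ratio, with 1 library per group, so its link to the ratio is partly built in. Leptomeningeal marker sums over 13 genes were 74.6 FPKM in the dark-reared input, 68.0 in the normally reared, 49.1 in the contralateral, 37.6 in the ipsilateral and 35.2 in the 10-day darkness input, while Gjb2 in these inputs read 4.6, 4.4, 3.0, 1.6 and 2.1 FPKM. In the pulldowns the sum was 14.0 to 34.9 FPKM. Of it, Pdgfra, which oligodendrocyte precursors also express, averaged 14.5 FPKM and Islr 4.69 FPKM. Of the 6 leptomeningeal markers tested, 3 were lower in the pulldown and 1, Pdgfra, was higher, against 50.7% and 26.4% of all genes. Over the whole list, Lum was at 0 in 13 of the 16 pulldowns, Slc47a1 in 12, Ogn and Col3a1 in 11, Slc6a13 and Aldh1a2 in 5, and Dcn and Igf2 in 1. Col1a1, Col1a2, Fmod, Islr and Pdgfra were above 0 in all 16. Endothelial marker sums in the inputs, in the order of the leptomeningeal sums above, were 61.6, 60.0, 62.4, 43.8 and 34.1 FPKM. The part of leptomeningeal or endothelial RNA in the Gjb2 ratio was not tested.

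The connexins were also compared with each other within a library, as log2 ratios of FPKM + 1, in which the pseudocount weighs most on Gjb2. The log2 ratio of Gja1 to Gjb6 was 1.43 ± 0.39 in pulldowns (SD, n = 16) and 1.34 ± 0.21 in inputs (n = 5), a difference of 0.09 smaller than the spread (2-sided exact permutation test, p = 0.615). The ratio of Gja1 to Gjb2 was higher in pulldowns by 1.70, at 5.81 ± 0.38 against 4.11 ± 0.32. That of Gjb6 to Gjb2 was higher by 1.61, at 4.37 ± 0.17 against 2.77 ± 0.45. In both cases no pulldown overlapped an input, and the exact permutation p was 0.0001, the smallest this design allows, or 0.000147 after adjustment over the 3 pairs. With pseudocounts of 0.1 and 5 the difference was 1.498 and 2.06 for Gja1 over Gjb2 and 1.43 and 1.87 for Gjb6 over Gjb2, with the same adjusted p. The enrichment of Gja1 and that of Gjb6 could not be told apart at this spread, and both exceeded that of Gjb2.

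**Figure D2:**
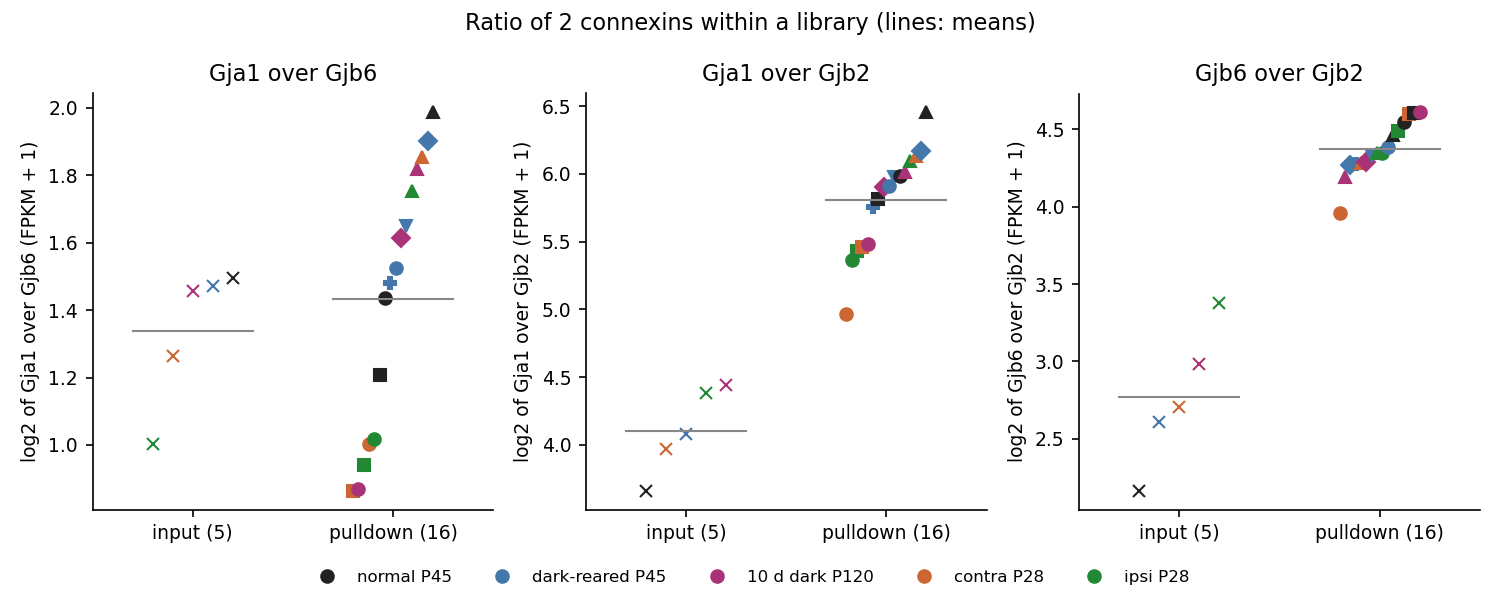
The log2 ratio of one connexin to another within each library (vertical axes, from FPKM + 1) for 5 inputs, drawn as crosses, and 16 pulldowns, coloured by group with symbols for the replicate number. Grey lines are means: the ratios to Gjb2 lie higher in every pulldown than in every input, and the ratio of Gja1 to Gjb6 spreads widely within the pulldowns.

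Among 20 connexins in the table, Gja1 made up 68.5 ± 6.19% of the summed connexin FPKM of a pulldown, Gjb6 25.6 ± 4.75% and Gjb2 1.08 ± 0.203% (SD, n = 16). In the inputs the shares were 54.5 ± 3.69%, 21.1 ± 1.76% and 2.47 ± 0.889% (n = 5). Gjb2 thus took a smaller share of the pulldown than of the input although its own level was higher there. Of the 17 other connexins, 4 passed the filter on low values in this comparison, 2 of them higher and 1 lower in the pulldown, where 26.4% of all genes were higher and 50.7% lower. Gjb1, the oligodendrocyte connexin Cx32, averaged 8.10 FPKM against 5.86 in the inputs and rose by 0.38 ± 0.16 (SE, limma adjusted p = 0.0432). Its pulldown mean was thus above that of Gjb2, and the oligodendrocyte marker sum was 1447 to 3745 FPKM in pulldowns and 1110 to 1904 FPKM in inputs. The part of oligodendrocyte RNA in these values was not tested. Gjc3, also of oligodendrocytes, averaged 6.80 FPKM against 7.82 and did not pass (adjusted p = 0.145). Of the rarer connexins, Gjc1 (Cx45) was lower at 0.900 against 2.88 FPKM. In the other direction from Gja1, Gjd2, the neuronal connexin Cx36, averaged 0.119 FPKM in pulldowns and 2.08 FPKM in inputs. Gja3, Gjc1 and Gjd2, each with a pulldown mean below 1 FPKM, were named after their values were seen.

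Pannexins are channel proteins related to connexins in shape but not in sequence, and 2 of 3 were tested. Both were lower in the pulldown, as 50.7% of all genes were, Panx1 by 1.33 (2.89 against 8.72 FPKM) and Panx2, expressed in neurons, by 2.21 (4.79 against 24.9 FPKM), that is log2 differences of -1.33 and -2.21.

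Genes whose products bind, anchor, turn over or modify Cx43 formed a mixed list, with 15 of its 17 genes tested, 5 higher and 4 lower, and a median log2 difference of -0.05 against -0.31 for all genes, of which 26.4% were higher and 50.7% lower. Among the members that rose were Mlc1, an astrocyte membrane protein of endfeet, at 3.23, Hepacam, the adhesion protein GlialCAM that gathers Mlc1 and Cx43 at cell contacts, at 2.67, the junction scaffold Tjp1 at 0.65, and the kinase Src at 0.52. Mlc1 averaged 935.8 FPKM and Hepacam 242.3 FPKM in pulldowns, both above Gjb6. The members that fell were Nov, a secreted matrix protein, at -2.35, the ubiquilin Ubqln4 at -1.16, Sgsm3 at -0.91 and Tsg101, a sorting protein, at -0.30. Cav1, Cdh2, Ctnnb1, Dbn1, Nedd4 and Smurf2 did not pass.

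Visual experience was addressed by comparing pulldown groups with each other. Over the 5 groups, Gja1 averaged 576.3 ± 60.2 FPKM after normal rearing, 575.8 ± 67.2 after dark rearing, 445.7 ± 150.2 after 10 days of darkness, 383.0 ± 228.8 contralaterally and 358.7 ± 188.8 ipsilaterally (SD, n = 3, 4, 3, 3 and 3). Ranges of neighbours in this order overlapped at every step. Gjb6 followed the same order, with 199.5 ± 44.0 FPKM after normal rearing, a mean of 183.5 FPKM after dark rearing, then 157.3 ± 4.36, 146.6 ± 28.4 and 140.9 ± 27.1 FPKM. Its only neighbours that did not overlap were dark rearing (174.0 to 192.4 FPKM) and 10 days of darkness (152.8 to 161.5 FPKM), which differ in age as well, and 5.78% of the genes tested did not overlap in this direction. Gjb2 ran from 8.28 ± 0.562 FPKM after dark rearing through 7.57 ± 1.48 after normal rearing, 6.77 ± 1.33 after 10 days of darkness and 6.77 ± 2.31 contralaterally to 5.80 ± 1.60 ipsilaterally, with overlap at every step. The groups differ in age, so age and treatment cannot be told apart except where both groups were aged 45 or 28 days.

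In the limma F-test over the 5 groups, where 1.74% of 11562 genes were called, 0 of the 3 passed. Gja1 had F = 2.19 (adjusted p = 0.462), Gjb6 F = 2.88 (adjusted p = 0.358) and Gjb2 F = 1.32 (adjusted p = 0.641). Gja1 and Gjb6 passed without monocular replicate 3 of both hemispheres, at F = 12.7 (limma adjusted p = 0.0033) and F = 6.48 (adjusted p = 0.018). In that setting 4131 of 11535 genes passed. They also passed without the 3 pulldowns of low Rn45s, at F = 11.2 and 10.2, when 3722 of 11494 genes did. With array weights Gja1 and Gjb6 passed at F = 9.74 and 7.66, when 7192 of 11562 genes did. Passing was common among all genes in these settings, so it was not particular to the connexins. The fits without monocular replicates 3 and without the low-Rn45s pulldowns were chosen after seeing the data. With both monocular replicates 3 left out, the monocular libraries that remain are the 4 of the lower Gja1 set, and these are also the 4 pulldowns with the highest Rn45s. The F-test had no block, so it treated same-numbered libraries of the hemispheres as independent.

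No connexin differed beyond the error between dark and normal rearing at day 45. The log2 differences were -0.00 ± 0.36 for Gja1 (SE, limma adjusted p = 0.999), -0.10 ± 0.17 for Gjb6 (adjusted p = 0.935) and 0.13 ± 0.22 for Gjb2 (adjusted p = 0.935). None of the 3 was called, in a comparison where 0.00865% of genes were and 640 genes had an unadjusted p under 0.05, and each gene's groups overlapped, unlike 11.8% of genes. The error shared by the 5 groups includes the spread of the monocular and darkness libraries. In a fit of only these 2 groups the SE was 0.12 for Gja1, 0.14 for Gjb6 and 0.13 for Gjb2 (limma adjusted p = 0.991, 0.733 and 0.639). The sign of Gja1 was positive under median-ratio scaling (0.08) and after centring on transcript GC content (0.12), and Gjb6 was at 0.07 without normally reared replicate 2. The log2 ratio of Gjb6 to Gjb2 was 4.31 ± 0.05 in the 4 dark-reared and 4.54 ± 0.07 in the 3 normally reared pulldowns, without overlap. Its exact permutation p of 0.0571 was the smallest that 4 against 3 allows, and 0.514 after adjustment over the 9 ratio tests between groups. The other 8 had adjusted p = 1.

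Between the hemispheres of monocularly deprived mice, Gja1 differed by 0.06 ± 0.38, Gjb6 by 0.06 ± 0.18 and Gjb2 by 0.17 ± 0.24 (SE, contralateral minus ipsilateral, limma adjusted p = 1 for each). No gene of 11562 passed (0%), 84 were at an unadjusted p under 0.05, and the groups overlapped for each connexin, unlike 1.57% of genes. Same-numbered libraries of the 2 hemispheres moved together, with correlations of their deviations of 0.801, 0.786 and 0.902. With the number as a block the errors fell to 0.064 for Gja1 and Gjb6 and to 0.12 for Gjb2, with adjusted p = 0.855, 0.864 and 0.806 and 1 of 11370 genes called (0.0088%). Without contralateral replicate 3 the unblocked Gja1 difference was -0.39, and without ipsilateral replicate 3 it was 0.46. Within pairs, Gja1 differed by 0.01, 0.01 and 0.17 on the log2 scale, Gjb6 by 0.02, 0.08 and 0.07, and Gjb2 by 0.40, -0.03 and 0.13. The difference between replicates 2 and 3 of one hemisphere was thus far wider for Gja1, 224.0 against 645.3 FPKM, than any difference between hemispheres of one number. The 0.40 of Gjb2 in pair 1 stood beside an endothelial marker sum of 41.5 FPKM in that contralateral pulldown, against 16 FPKM in its ipsilateral partner, the second highest of the 16 pulldowns, and a median of 6.9 FPKM over all of them. The part of endothelial RNA in it was not tested.

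**Figure D3:**
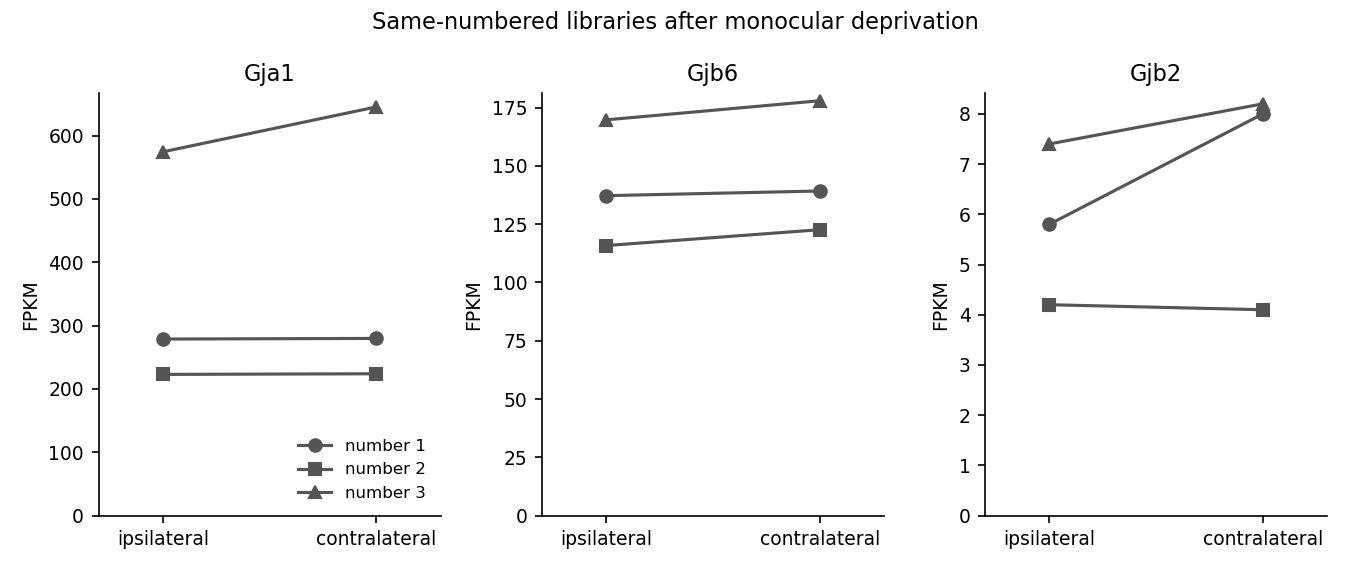
FPKM of each connexin (linear vertical axes from 0) in the ipsilateral and contralateral pulldown of the same replicate number, joined by a line. For Gja1 the lines of numbers 1 and 2 are nearly flat between 223.0 and 279.8 FPKM, and that of number 3 runs from 574.3 to 645.3 FPKM, so the numbers differ more than the hemispheres.

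After 10 days of darkness at day 120, all 3 genes had lower means than after normal rearing at day 45, with log2 differences of -0.43 ± 0.38 for Gja1, -0.32 ± 0.18 for Gjb6 and -0.14 ± 0.24 for Gjb2 (SE, limma adjusted p = 1 for each). None was among the 0.0865% of genes called, and the groups overlapped for each, unlike 10.9% of genes. For Gja1 the difference was -0.12 without replicate 1 of the darkness group, whose 279.9 FPKM lay well below the other 2. Without that library Gjb2 was at 0.0012. For Gjb6 the difference was -0.46 without normally reared replicate 3, -0.15 without normally reared replicate 2 and -0.44 with array weights (limma adjusted p = 0.0527). Other cell markers moved in this contrast. Of the 12 microglia markers, 7 were called higher after darkness, with sums of 92.4 to 159.7 FPKM against 23.4 to 39.2 FPKM after normal rearing. Of the 15 astrocyte markers, 0 were called and 1 had a positive difference, with a median log2 difference of -0.25 against 0.01 for all genes. In the other marker lists 0 genes were called. Differences were positive for 13 of 13 neuron, 6 of 6 ependymal, 3 of 3 endothelial, 8 of 10 oligodendrocyte and 0 of 3 leptomeningeal markers tested. Their median log2 differences were 0.28, 0.74, 0.75, 0.14 and -0.10 in this order. The part of any of these cell types in the connexin values was not tested. The dark rearing effect minus the monocular effect was -0.06 ± 0.52 for Gja1, -0.15 ± 0.25 for Gjb6 and -0.04 ± 0.32 for Gjb2 (SE, limma adjusted p = 1 for each), with 0 of 11562 genes called (0%) and 116 at an unadjusted p under 0.05.

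Of the other genes listed, 3 connexins, 2 pannexins and 15 partners were tested between pulldown groups. In the dark rearing, monocular and 10-day darkness contrasts 0 of them were called, where 0.00865%, 0% and 0.0865% of all genes were. In the F-test over groups, Panx2 and Dbn1, an actin-binding partner, were called, where 1.74% of all genes were.

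The spread of Gja1 between replicates was wide. Its within-group SD on the log2 scale was 0.52, above that of 93.0% of 11562 genes, against a median of 0.28 over all genes. A wide spread was not particular to Gja1, since 4 of the 15 astrocyte markers had a higher SD, in a range of 0.10 to 0.76 over the list. Gjb6 had 0.21, above 30.5% of genes, and Gjb2 0.30, above 56.6%. The ratio of Gja1 to Gjb6 in FPKM was 1.83 to 2.03 in the 5 libraries of the lower Gja1 set and 2.31 to 3.98 in the other 11, sets that were defined by the level of Gja1 itself.

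In the lower Gja1 set, a library's measure of GC content and its Rn45s ran higher, and its astrocyte marker sum ran lower. The first was the rank correlation, across genes, between a library's deviations from the mean of the 16 pulldowns and the GC content of the transcript. It was 0.304 to 0.474 in the lower Gja1 set, so GC-rich transcripts read higher there, and -0.533 to 0.150 in the others, where the 0.150 belonged to dark-reared replicate 1. The transcripts of Gja1, Gjb6 and Gjb2 have a GC content of 44.5%, 49.6% and 48.2%, above that of 17.4%, 42.5% and 35.3% of genes. After each library was centred within bins of GC content, the within-group SD of Gja1 was 0.35, still above that of 81.7% of genes, and that of Gjb6 0.19 and Gjb2 0.29. The second was Rn45s, at 13585 to 31654 FPKM in the lower set and 130.3 to 14292 FPKM in the others. The third, over 15 genes, was 13990 to 15536 FPKM in the lower set and 14753 to 19323 FPKM in the others. The sets overlapped in Rn45s and in this sum. Its markers did not vary alike. The within-group SD was 0.12 for Glul and Aldoc, the markers of highest level, but 0.74 for Slc1a2 and 0.63 for Slc1a3. The part of GC content, Rn45s and the marker sum in the level of Gja1 was not tested beyond that centring. Fewer tagged cells and less RNA per cell cannot be told apart in bulk libraries.

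**Figure D4:**
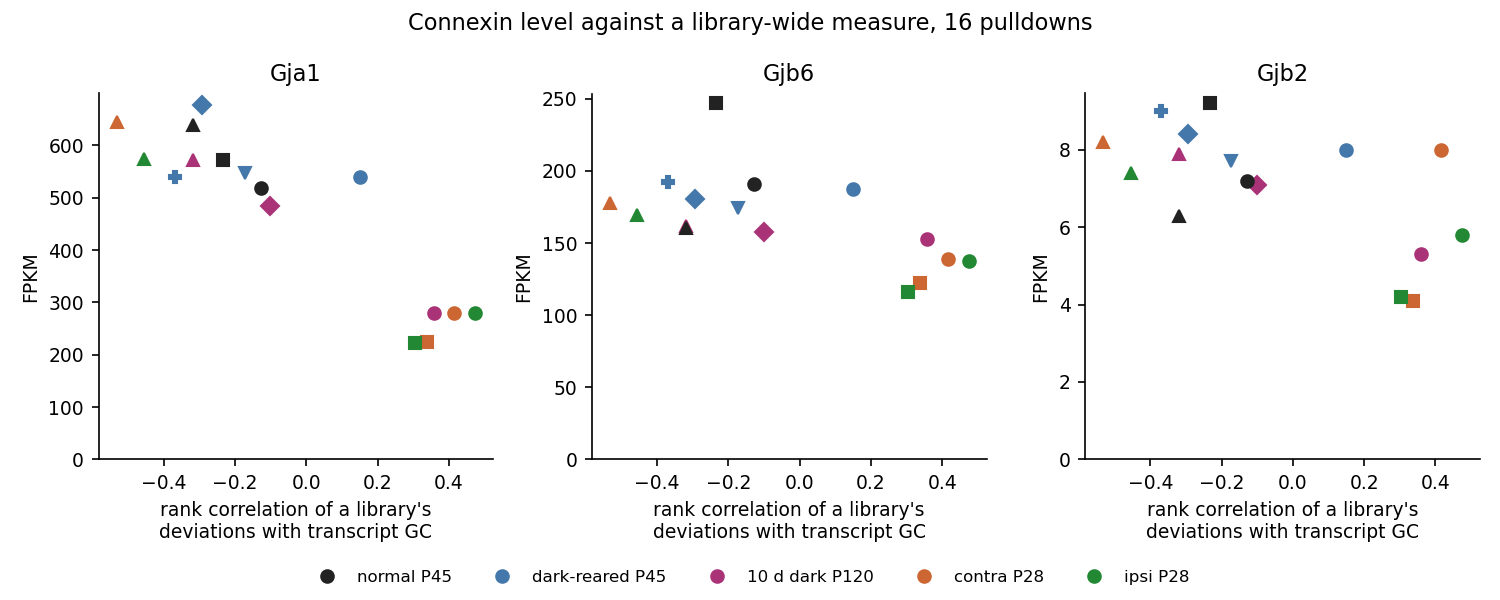
FPKM of each connexin (linear vertical axes from 0) in 16 pulldowns against the rank correlation, across genes, of that library's deviations with transcript GC content (horizontal axes), coloured by group with symbols for the replicate number. The 5 libraries of the lower Gja1 set lie at correlations of 0.304 to 0.474, and the 11 others at -0.533 to 0.150.

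Across the 16 pulldowns, Pearson's r on log2(FPKM + 1) was 0.80 between Gja1 and Gjb6, 0.79 between Gja1 and Gjb2 and 0.83 between the neighbours Gjb6 and Gjb2. The libraries differ in depth, age and the GC pattern above and fall into the lower and higher Gja1 sets, so these are descriptions. Of 7372 genes with a mean above 5 FPKM, 1395 were more like Gja1 than Gjb6 was, and 1400 more than Gjb2 was. From the side of Gjb6, 145 genes were more like it than Gja1 was and 64 more than Gjb2 was. From the side of Gjb2, 129 were more like it than Gja1 was and 69 more than Gjb6 was. Most like Gja1 were Adcy2, an adenylyl cyclase, at 0.981, Soat1 at 0.977, Lmbrd1 at 0.973, Astn1 at 0.972 and Canx, the chaperone calnexin, at 0.971. For Gjb6 they were Irak2 at 0.915, Lrrc8a, a volume-regulated anion channel subunit, at 0.913, Eva1a at 0.912, Rapgef3 at 0.910 and Ppp1r3g at 0.906. For Gjb2 they were Mro at 0.930, Eva1a at 0.906, Adora2b, an adenosine receptor, at 0.904, Olfml1 at 0.900 and Lhfp at 0.895.

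On deviations from the group means, which leave out the differences between groups, r was 0.65 between Gja1 and Gjb6, 0.73 between Gja1 and Gjb2 and 0.82 between Gjb6 and Gjb2. Of the 7372 genes, 2550 were more like Gja1 than Gjb6 was, and 2198 more than Gjb2 was. By the same measure, 796 were more like Gjb6 than Gja1 was and 69 more than Gjb2 was. From the side of Gjb2, 583 were more like it than Gja1 was and 146 more than Gjb6 was. The deviations keep the gap in Gja1 between replicates of a monocular group. Among the 5 most like Gja1 were then Asph at 0.989, Amot at 0.988, Dpy19l3 at 0.988 and Sqle, an enzyme of sterol synthesis, at 0.987. For Gjb6 they were Tmem100 at 0.943, Mprip at 0.942, Zfp410 at 0.936, Irak2 at 0.928 and Fam107a at 0.926, and for Gjb2 they were Mro at 0.953, Ankrd13a at 0.939, Ticam1 at 0.938, Nrbp2 at 0.936 and Dhcr7 at 0.929. Irak2 for Gjb6 and Mro for Gjb2 were in both lists of 5, and no gene was in both for Gja1.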

How the data were processed

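The values used were FPKM per gene and library as deposited by the authors, rounded to 0.1, with 1 RefSeq transcript for each of 24537 genes on mm10. The submitters' processing notes name STAR 2.5.1b, HOMER 4.10, CASAVA 1.8.2, FastQC 0.11.2, DESeq2 and R 3.4.3, without saying in which order. Of 22 labelled samples, 21 libraries were used. Dark-reared replicate 2 was not analysed here, and 1 column of another sample was left out.

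The analysis scale was log2(FPKM + 1). limma 3.58.1 in R 4.3.3, with a trended and robust prior, tested every gene whose mean exceeded 1 FPKM. Tests were 2-sided, and p-values were adjusted by Benjamini-Hochberg across genes at a threshold of 0.05. All 16 pulldowns shared 1 estimate of the spread, and pulldown against input had a term for the group. Ratios of 2 connexins were compared by exact permutation tests over libraries in SciPy 1.17.1. The fits of single contrasts without a block were also run on simulated data of known differences, with independent noise between libraries. The F-test and the fits with a block were not. Same-numbered monocular libraries were taken as pairs only in fits with the replicate block and in the differences within pairs. Each pair's deviations correlated at 0.786 or more, a property of the data, since the labels do not say what a number means. The main fits, the F-test and the permutation tests had no block and treated these libraries as independent. The connexins and the 11 gene lists were chosen with earlier results of these data known. Named genes were the connexins, genes of the connexin, pannexin and partner lists above 1 FPKM in pulldowns, the 5 genes most like each connexin, and marker genes, a few of which are not reported here. Counts were not used, so depth was estimated from value steps in genes shorter than 130 bases. Transcript length and GC content matched 96.84% of genes, and all 3 promoters matched. Alternative settings are given at the end.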

Additional observations from a re-analysis of the deposited data

Results flagged for a closer look

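Gja1 in dark-reared replicate 4 read 676.4 FPKM, while the other 3 dark-reared pulldowns read 538.7, 540.0 and 548.1 FPKM, so this sample lies far from the rest of its group. Chance flags about 1 group in 20, and 6 were looked at.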

How the results depend on the processing

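Pulldown against input kept its direction and its call for all 3 connexins in every alternative run, and its count of called genes was 6070 at a filter of 5 FPKM, where fewer genes were tested. Rounding to 0.1 FPKM and few reads limit Gjb2, above all in the inputs, and the spread of the monocular libraries limits every contrast between pulldown groups. The cause of the changes below was not tested. For dark against normal rearing, Gja1 was 0.079 under median-ratio scaling, 0.00055 with array weights, 0.12 after centring on GC content and 0.074 without the 3 pulldowns of low Rn45s, and Gjb2 was -0.0037 with array weights. That contrast called 2 genes at pseudocount 5, at a filter of 5 FPKM, after quantile normalization, after median-ratio scaling and after rescaling without Rn45s and Mir6236, 27 with array weights and 0 without the low-Rn45s pulldowns. For contralateral against ipsilateral, Gja1 was -0.043 with array weights, and 1 gene was called without the low-Rn45s pulldowns, without pair 3 and with the replicate block. With the replicate block, Gja1 was 0.06, Gjb6 0.06 and Gjb2 0.17, and no connexin call changed. The 10-day darkness contrast called 20 genes at pseudocount 5, 73 with no filter, 0 at a filter of 5 FPKM, 258 with array weights, 16 without pair 3, 1 in a fit of only its groups and 0 with the replicate block, though its numbers did not pair the samples (correlations 0.214 and -0.0875). The F-test called 308 genes with no filter, 133 under median-ratio scaling, 7192 with array weights, 3722 without the low-Rn45s pulldowns and 4131 without pair 3. In those last 3 settings F was 9.74, 11.2 and 12.7 for Gja1 and 7.66, 10.2 and 6.48 for Gjb6. For the difference of both effects, Gja1 was 0.043 with array weights, 0.0023 after GC centring and 0.068 without the low-Rn45s pulldowns, Gjb2 was 0.057 after quantile normalization and 0.0042 after GC centring, and 1 gene was called without the low-Rn45s pulldowns and without pair 3. Rescaling without Rn45s and Mir6236, GC centring, and the fits without low-Rn45s pulldowns or pair 3 were chosen after seeing the data. Leaving out 1 library at a time gave -0.083 to 0.074 for Gja1, -0.24 to 0.067 for Gjb6 and 0 to 3 genes in dark against normal rearing. It gave -0.39 to 0.46 for Gja1, -0.091 to 0.20 for Gjb6, -0.011 to 0.45 for Gjb2 and 0 to 1 gene between hemispheres. It gave -0.64 to -0.12 for Gja1, -0.46 to -0.15 for Gjb6, -0.25 to 0.0012 for Gjb2 and 4 to 15 genes for 10 days of darkness, where array weights gave -0.44 for Gjb6. It gave 33 to 1130 genes in the F-test, and -0.46 to 0.39 for Gja1, -0.30 to 0.010 for Gjb6, -0.32 to 0.14 for Gjb2 and 0 to 1 gene in the difference of effects. For the log2 ratios the ranges between hemispheres were -0.42 to 0.17 (Gja1 over Gjb2), -0.30 to 0.26 (Gja1 over Gjb6) and -0.27 to 0.047 (Gjb6 over Gjb2). In dark against normal rearing they were -0.27 to 0.055 for Gja1 over Gjb2 and -0.073 to 0.32 for Gja1 over Gjb6, and for 10 days of darkness -0.30 to 0.17 for Gja1 over Gjb6.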
